A study of Rattus norvegicus with 12 samples.

Results

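The comparison of high with low mean stretch at low cyclic shortening rested on 6 rat right ventricular papillary muscles, of 12 in the whole study, namely all those labelled as low shortening. The 3 high stretch low shortening muscles were held at a targeted mean stretch of 16% of slack length and shortened cyclically by 4%. The 3 low stretch low shortening muscles were held at 4% and shortened by the same 4%. The other 6 muscles formed the same pair of stretch levels at 16% shortening. Every muscle came from a different adult male LBN-F1 rat and was cultured for 12 h at 37 °C in oxygenated, supplemented medium while paced at 1 Hz, so each group held 3 biological replicates and no group was left uncultured. Here "high stretch" and "low stretch" muscles mean those at low shortening unless high shortening is named.

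A papillary muscle is a thin bundle of ventricular myocardium that anchors the valve leaflets, and it can be kept contracting in a bath because its core is reached by oxygen from the surface. Mean stretch sets the resting length of the sarcomeres, and cardiac muscle reads it through titin, the Z-disc, integrin adhesions and stretch-activated channels. Sustained stretch of the heart is known for raising natriuretic peptides, immediate early genes, matrix genes and inflammatory signals, and cyclic shortening sets the work, and so the demand for mitochondrial ATP.

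The arrays of the low stretch muscles stood apart from all others in the study. Over all probe sets that were not controls, they correlated with each other at 0.991 to 0.993 (Pearson's r of log2 intensities, across probe sets) and with the 3 high stretch arrays at 0.951 to 0.957. The high stretch arrays correlated at 0.984 to 0.993 with the 6 arrays at high shortening, and the low stretch arrays at 0.951 to 0.962 with the same 6. Between the 2 groups at high shortening, 0 of 10316 genes passed an adjusted p of 0.05 in limma, and 346 had an unadjusted p under 0.05. No value of the comparison can be had without the low stretch arrays.

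The control probe sets that read the 3' end, the middle and the 5' end of Gapdh and beta-actin (Actb) moved with the groups. The array labels RNA from its 3' end, and a wider gap between 3' and 5' probe sets is commonly read as a sign of shorter RNA. The Gapdh excess of the 3' over the 5' probe set was 2.77, 3.77 and 3.83 log2 units in high stretch muscles, against 0.44, 0.78 and 0.39 in low stretch muscles. The Actb excess was 3.42, 4.00 and 4.82 in high stretch muscles, against 2.12, 2.59 and 1.86 in low stretch muscles. Neither excess overlapped between the groups. Their mean, called the 3' to 5' index here, was 3.77 ± 0.63 in high stretch muscles and 1.36 ± 0.29 in low stretch muscles (SD, n = 3 each), a difference of 2.41 (two-sided exact permutation p = 0.1, the smallest that 3 against 3 allows; 0.108 after Benjamini-Hochberg adjustment over 13 quantities). The 3' probe set of Gapdh differed by -0.43 and its 5' probe set by -3.36, while for Actb the differences were -1.69 and -3.58. The same excess for the hexokinase control, which was dim, ran the other way, at 0.77 ± 0.31 in high stretch muscles and 1.30 ± 0.04 in low stretch muscles (SD, n = 3 each).

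**Figure D1:**
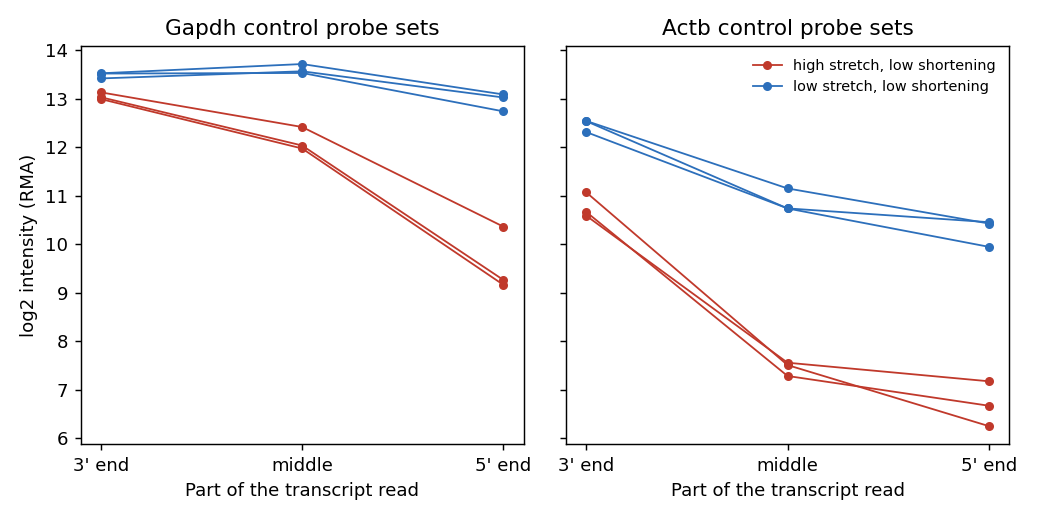
Log2 RMA intensity (vertical axis) of the Gapdh and Actb control probe sets that read the 3' end, the middle and the 5' end of the transcript (horizontal axis), with 1 line per array. The high stretch arrays drop more steeply toward the 5' end than the low stretch arrays for both genes, and at the 5' end all 3 lie under all 3 low stretch arrays.

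Body weight also separated the groups. The rats' labels gave 270, 280 and 272 for high stretch muscles and 311, 318 and 305 for low stretch muscles, with no unit stated, while ages overlapped at 72, 81 and 81 against 75, 75 and 75. The index of the low stretch arrays, 1.13 to 1.69, did not overlap that of the other 9, 2.56 to 4.33, so a fit with the index as a covariate extrapolates. That fit called 1342 of 10316 genes tested, 457 higher and 885 lower. Of the 5152 genes reported next, 1116 (21.7%) kept a call of the same sign, while the fitted difference of 429 changed sign. In the fit with weight as a covariate, 2261 genes were called, of which 2153 were among the 5152 with the same sign, and 48 of the 5152 changed sign. The weights of the low stretch group, 305 to 318, did not overlap those of the other 9 rats, 267 to 297. The weight fit therefore extrapolates too. The parts of RNA integrity, body weight and stretch in any value below cannot be told apart, and counts with the index as a covariate, called the index fit below, are given with the gene lists.

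Of 10316 genes tested, 5152 (49.9%) passed the threshold, an adjusted p of 0.05 in limma with Benjamini-Hochberg adjustment. In high stretch muscles 2414 (23.4%) were higher and 2738 (26.5%) lower. More of the large changes were falls. At least 2-fold, 517 genes were higher and 1037 lower, and at least 4-fold, 35 were higher and 162 lower. The median difference over all genes was 0.0052 on the log2 scale, and that of the called genes without regard to sign was 0.77. In 5804 genes (56.3%) the groups did not overlap, and these held 95.7% of the called genes. Centring each array on its median moved the median of all genes to 0.12 and turned the split to 3116 higher and 2313 lower, so the share of calls that were higher was 57.4%, against 46.9% as reported.

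The fitted stretch effect differed between the shortening levels in many genes. The difference between the stretch effects at low and at high shortening passed the threshold for 3496 of 10316 genes (33.9%). Among them were 3424 (66.5%) of those called at low shortening, a share raised by that choice, since the difference contains the effect at low shortening. With the index as a covariate the difference passed in 737 genes, and with weight in 1156. It rests on the same low stretch arrays, so the parts of RNA integrity, body weight and shortening in it cannot be told apart. The 2 effects share no samples. Atp5mg, described next, measured 10.64, 9.15 and 9.00 in high stretch muscles at high shortening, against 9.19, 9.26 and 9.36 in low stretch muscles at high shortening. Dhx36 measured 11.11, 10.78 and 10.86 in high stretch muscles at high shortening, against 10.79, 10.90 and 10.83 in low stretch muscles at high shortening. For both genes these 6 arrays lay nearer to the high stretch than to the low stretch arrays at low shortening.

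Among the 12 largest fitted falls was Fabp4, a fatty acid binding protein of adipocytes and capillary endothelium. It measured 3.67, 3.89 and 3.92 in high stretch muscles, against 9.33, 10.02 and 8.94 in low stretch muscles. The high stretch values lay under the intensity filter of 4.91, so their order carries no meaning; the fitted difference of -5.60 was -4.52 with them raised to the filter, smaller than that of Atp5mg. Atp5mg, a membrane subunit of ATP synthase, measured 9.12, 8.76 and 8.90 in high stretch muscles, against 13.75, 13.61 and 13.64 in low stretch muscles, and its difference was -4.74 ± 0.32 (SE; adjusted p = 3.47e-07). The groups were far apart and each was tight. Ndufb8, an accessory subunit of respiratory complex I, measured 6.48, 6.27 and 6.15 in high stretch muscles, against 10.31, 10.43 and 10.82 in low stretch muscles, a difference of -4.22 ± 0.19 (adjusted p = 1.74e-08). Pfn1, profilin, which binds actin monomers, measured 6.67, 6.04 and 6.07 in high stretch muscles, against 10.75, 10.42 and 10.26 in low stretch muscles. Higd2a, known for its part in assembling cytochrome c oxidase, measured 7.13, 7.12 and 7.16 in high stretch muscles, against 11.00, 10.92 and 11.17 in low stretch muscles. All 5 genes were lower on every high stretch array than on any low stretch array, which the choice of genes required. Of all genes tested, 56.3% had no overlap between the groups. The cytokine Mif differed by -3.71, the neutrophil-attracting chemokine Cxcl6 by -3.65, the Mediator subunit Med30 by -3.59, the GTP-binding protein Drg1 by -3.57 and the fatty acid transporter Cd36 by -3.52. Cxcl9, a chemokine for T cells, measured 5.21, 7.12 and 7.75 in high stretch muscles, against 10.20, 10.12 and 10.14 in low stretch muscles; its high stretch arrays were the most scattered of the 12 largest falls, and its other probe set differed by -4.65, or -3.81 with its high stretch values, all under the filter, raised to it. Rps24, a protein of the small ribosomal subunit, differed by -3.46, but by 0.14 on its other probe set, which did not pass. With their floor at the filter, the differences were -3.37 for Cxcl6 and -2.99 for Med30. Fabp4, Atp5mg, Ndufb8, Pfn1, Higd2a, Mif, Cxcl6, Med30, Drg1 and Cd36 each had only 1 probe set past the filter. Agreement between probe sets could not be checked for these genes.

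Among the 12 largest fitted rises was Hira, a chaperone of histone H3.3, which measured 7.70, 7.50 and 7.32 in high stretch muscles, against 3.63, 3.82 and 3.34 in low stretch muscles. Its low stretch values lay under the filter, and the difference of 3.92 ± 0.20 (SE) was 2.60 with them raised to it. That was smaller than those of Ube3al1, Dhx36, Ankrd11, Setd5, Wdfy1, Kpna1, Slc16a6, Gnb1 and Thoc3. Dhx36, a helicase that unwinds G-quadruplexes, measured 10.91, 11.17 and 11.14 in high stretch muscles, against 7.60, 7.76 and 7.76 in low stretch muscles, a difference of 3.37 ± 0.12 (adjusted p = 4.51e-09). Its groups did not overlap, which the choice of genes required. Its 3 other probe sets differed by 1.77, 0.40 and 0.13, of which only the largest passed. Kpna1, an importin alpha that carries proteins into the nucleus, measured 12.69, 12.87 and 12.80 in high stretch muscles, against 9.71, 9.50 and 10.01 in low stretch muscles; its other 2 probe sets differed by 0.26 and 0.73. Ube3al1 differed by 3.56 and Nek1, a protein kinase, by 3.04, or 1.95 with low values raised to the filter. For the chromatin proteins Ankrd11 (3.26) and Setd5 (3.15) the other probe sets gave 0.89 and 0.64, and -0.10 and 0.32. One of those of Ankrd11 was under the filter on all low stretch arrays, and the call of Setd5 was lost in the index fit (2.44). Opposite calls came from other probe sets of 3 of these genes. Gnb1, a G protein beta subunit, differed by 2.83 on its brightest probe set and by -1.25 on another. The mRNA export factor Thoc3 gave 2.70 and -0.56, and the endosomal protein Wdfy1 gave 3.07 and -0.63. Slc16a6, a transporter of the monocarboxylate family, gave 2.96 and 0.10, and its call was lost in the index fit (2.61). Tc2n measured 7.21, 9.15 and 7.04 in high stretch muscles, against 4.64, 6.38 and 3.99 in low stretch muscles, and was called at 2.79 (adjusted p = 0.00742), with replicate 2 high in both groups; 2 of its low stretch values were under the filter, its sign turned in the index fit (-0.75), and its call was lost with weight as a covariate (2.54).

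**Figure D2:**
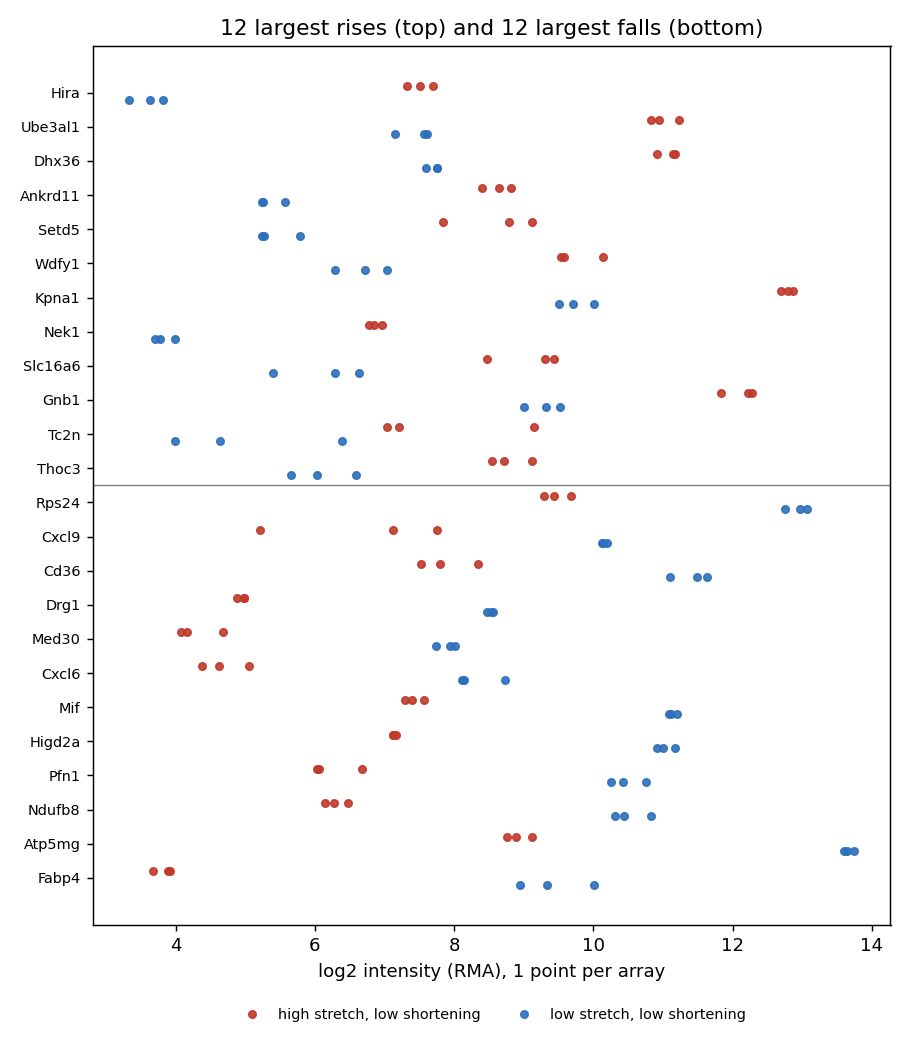
Log2 RMA intensity (horizontal axis) of the 12 genes with the largest rises and the 12 with the largest falls, with 1 point per array and the high stretch points drawn just above the low stretch points of the same gene. In all 24 genes the 3 high stretch points lie to one side of the 3 low stretch points, which the choice of genes required.

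The nuclear-encoded genes of oxidative phosphorylation, the chain of mitochondrial complexes that turns fuel into ATP, were lower in high stretch muscles. All gene lists were chosen with earlier results of these data known. Their shares are therefore descriptions and no test of the lists. Of 33 complex I genes tested, 25 fell and 0 rose, with a median difference of -0.89, where 26.5% of all genes fell and their median was 0.0052. Of 12 genes of complexes II and III, 9 fell and 2 rose (median -0.59). In complex IV, cytochrome c oxidase, 14 of 21 fell and 1 rose (median -0.63), and in ATP synthase 12 of 16 fell and 1 rose (median -0.81). Most of these calls could not be checked on a second probe set. In complex I, 24 of 25 called genes had only 1 past the filter. It was 9 of 11 in complexes II and III, 14 of 15 in complex IV and 12 of 13 in ATP synthase. Of all 10316 genes tested, 2626 had more than 1. The mean level of the complex I genes was 11.50 to 11.60 in high stretch muscles and 12.58 to 12.62 in low stretch muscles. In the fit with the index as a covariate, 15, 5, 7 and 8 of the genes of these 4 lists were called lower and 0 higher. Among all 10316 genes tested, it called 885 lower and 457 higher. That fit extrapolates, as given above, and cannot separate RNA integrity from stretch, so the part of RNA integrity in the falls was not tested. Fewer cells of a type and less RNA per cell cannot be told apart in such whole-muscle samples.

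Within complex I the size of the fall varied widely. Ndufa5, an accessory subunit of the matrix arm, measured 8.71, 8.82 and 8.76 in high stretch muscles, against 11.94, 11.85 and 11.85 in low stretch muscles, a difference of -3.12 ± 0.09 (SE; adjusted p = 1.3e-09). Ndufb8 fell further still, as given above, and 8 of the 33 complex I genes did not pass the test. The Rieske protein Uqcrfs1 of complex III differed by -1.36 and its partner subunit Uqcr11 by -1.34. Cox8a, a small subunit of complex IV, measured 10.20, 10.46 and 10.55 in high stretch muscles, against 12.01, 11.97 and 11.89 in low stretch muscles. Atp5pf, of the stalk of ATP synthase, measured 10.83, 10.69 and 10.88 in high stretch muscles, against 12.97, 12.82 and 12.98 in low stretch muscles. In each of these the groups did not overlap, as in 56.3% of all genes tested.

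The 150 bases before the annotated start of Ndufb8 and Ndufa5 are printed because both fell by over 8-fold and only that of Ndufa5 holds a match to the motif of NRF1, a regulator of respiratory chain genes. Sequences are RefSeq's for the rat assembly GRCr8, on the minus strand and written 5' to 3', at chr1:253362937-253363086 for Ndufb8 and chr4:53971236-53971385 for Ndufa5. The motif was GCGCA and GCGC with any 1 base (N) between them, searched on both strands, and capitals mark the match. These genes were picked for printing after their letters were seen.
Ndufb8: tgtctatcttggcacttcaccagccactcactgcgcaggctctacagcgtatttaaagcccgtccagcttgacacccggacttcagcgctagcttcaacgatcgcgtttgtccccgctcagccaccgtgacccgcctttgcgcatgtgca
Ndufa5: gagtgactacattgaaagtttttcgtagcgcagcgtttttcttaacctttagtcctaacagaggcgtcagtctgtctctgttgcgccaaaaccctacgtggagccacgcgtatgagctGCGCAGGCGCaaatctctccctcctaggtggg
The match in Ndufa5 lay 32 to 23 bases before the start. Of 55 respiratory chain genes that fell and had a promoter in the table, 12.7% held that motif within 250 bases before the start, against 16.7% of 18 that did not fall. The share was 9.40% of 8608 promoters of genes tested and 4.17% of all 27457. For the ETS motif CCGGAAG the shares were 29.1% of those that fell and 33.3% of those that did not, with 15.5% of genes tested and 7.74% of all promoters. The differences between these shares were not tested.

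Other mitochondrial and fuel pathways were lower as well, beside 26.5% that fell and 23.4% that rose among all genes tested. Of 74 mitochondrial ribosome genes, 42 fell and 13 rose (median -0.55); Mrpl54 differed by -1.80 and Mrps18b by -1.79. Of 27 genes of mitochondrial protein import, 16 fell and 2 rose (median -0.53), with Tomm40, the channel of the outer membrane, at -1.59 and the chaperone Timm13 at -1.25. Of 22 genes of the citric acid cycle and pyruvate entry, 15 fell and 1 rose (median -0.65). Mpc1, a pyruvate carrier, measured 10.53, 10.86 and 10.84 in high stretch muscles, against 12.52, 12.22 and 12.45 in low stretch muscles. Citrate synthase (Cs) differed by -1.06 on its brightest probe set and by -0.82, -3.05 and 0.12 on the others, the last of which did not pass. Fatty acid oxidation and uptake had 20 of 29 lower and 1 higher (median -0.69). Hadha, of the trifunctional protein of beta-oxidation, measured 10.88, 10.61 and 10.64 in high stretch muscles, against 12.24, 12.15 and 12.26 in low stretch muscles, and Cd36 measured 7.52, 8.34 and 7.80 in high stretch muscles, against 11.49, 11.10 and 11.63 in low stretch muscles. Glycolysis genes fell too, with 13 of 21 lower and 1 higher (median -0.71), among them the muscle enzyme Pgam2 (-2.06) and Gpi (-1.48), which isomerizes glucose 6-phosphate. Of 13 called mitochondrial ribosome genes with other probe sets, 4 had another called the same way and 5 another called the opposite way. These counts were 3 and 2 of 5 for import and 3 and 0 of 3 for the citric acid cycle. For fatty acids they were 1 and 2 of 4, and for glycolysis 2 and 1 of 3. The index fit called 1 higher and 28 lower for the mitochondrial ribosome, 2 higher and 5 lower for import and 0 higher and 9 lower for the citric acid cycle. For fatty acids it called 0 higher and 15 lower and for glycolysis 1 higher and 6 lower. Its counts for all 10316 genes tested were 457 higher and 885 lower.

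Genes for making and removing proteins fell in part, beside 26.5% that fell and 23.4% that rose among all genes tested. Of 74 cytosolic ribosome genes listed, 40 had a probe set under their symbol alone. Of the 39 tested, 22 fell and 4 rose (median -0.42). The median was -0.05 in the index fit and -0.14 after quantile normalization again. It was -0.31 with each array centred on its median and -0.51 with weight as a covariate. Rpl24, of the large subunit, measured 9.97, 9.55 and 9.77 in high stretch muscles, against 12.17, 12.16 and 12.10 in low stretch muscles. In this list the index fit called 0 higher and 2 lower, beside 457 higher and 885 lower of all 10316 genes tested. Probes for ribosomal protein genes can also match their many processed copies. Of 33 genes of translation initiation and elongation, 14 fell and 7 rose (median -0.09, but 0.018 with each array centred on its median); Eif1b differed by -1.94, and the scaffold Eif4g1 by -1.77 on its brightest probe set but by 1.00 on another that was also called, and its call was lost with probe sets averaged (-0.19). The index fit called 2 higher and 4 lower in that list. Of 36 proteasome genes, 20 fell and 6 rose (median -0.65). The lid subunit Psmd6 measured 9.92, 9.93 and 9.73 in high stretch muscles, against 11.81, 11.53 and 11.82 in low stretch muscles, and the core subunit Psma2 differed by -1.70, a call lost with the index as a covariate (-0.95). That fit left 4 proteasome genes lower and 0 higher.

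Chaperones moved both ways. Of 36 tested, 14 fell (38.9%) and 7 rose (19.4%), with a median of -0.23, where 26.5% of all genes tested fell and 23.4% rose. Hsp90ab1, a constitutive cytosolic HSP90, measured 10.68, 10.62 and 10.38 in high stretch muscles, against 13.22, 13.13 and 13.35 in low stretch muscles, while its other probe set differed by 0.22 and did not pass. Dnajc7, a co-chaperone of HSP70 and HSP90, measured 8.68, 8.43 and 8.56 in high stretch muscles, against 5.94, 5.93 and 5.93 in low stretch muscles, a difference of 2.62 ± 0.11 (SE; adjusted p = 1.6e-08). The pair moved in opposite directions with no overlap between groups, as in 56.3% of all genes tested. Of 30 genes of the unfolded protein and amino acid responses, 12 fell and 3 rose (median -0.31), with Hyou1, a chaperone of the endoplasmic reticulum, at -2.63 and the amino acid transporter Slc7a5 at -2.57. Of 27 genes of the oxidative stress response, many of them targets of NRF2, 16 fell and 0 rose (median -0.72). Gpx4, which reduces lipid peroxides, measured 10.36, 10.20 and 10.06 in high stretch muscles, against 12.47, 12.37 and 12.50 in low stretch muscles on its brightest probe set; the other differed by -0.31 and did not pass. Sod2, the mitochondrial superoxide dismutase, differed by -1.49, and the heme oxygenase Hmox1 measured 11.88, 11.56 and 11.90 in high stretch muscles, against 12.76, 12.57 and 12.55 in low stretch muscles, a difference of -0.85 whose call was lost with the index and with weight as covariates (-0.43 and -0.56). Calls in the index fit numbered 2 higher and 5 lower among chaperones, 1 higher and 4 lower in the unfolded protein list and 0 higher and 4 lower in the oxidative stress list. They numbered 457 higher and 885 lower among all 10316 genes tested. Among 35 autophagy and lysosome genes, 13 fell and 4 rose (median -0.25), including Map1lc3a, an LC3 of the autophagosome membrane (-1.73), and Atg2a, which supplies it with lipid (-1.82), and the index fit called 2 higher and 5 lower.

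Inflammatory signals were lower in high stretch muscles, where 26.5% of all genes tested fell and 23.4% rose. These lists too were chosen with earlier results of these data known. Of 35 chemokine and cytokine genes, 19 fell and 4 rose (median -0.72). The monocyte chemokine Ccl7 measured 9.09, 8.85 and 8.99 in high stretch muscles, against 11.59, 11.40 and 11.73 in low stretch muscles. Cxcl6 measured 5.06, 4.37 and 4.62 in high stretch muscles, against 8.74, 8.14 and 8.12 in low stretch muscles, and Mif measured 7.57, 7.30 and 7.39 in high stretch muscles, against 11.20, 11.08 and 11.11 in low stretch muscles. All 3 genes were lower on every high stretch array than on any low stretch array, which the choice of Cxcl6 and Mif required. The groups did not overlap in 56.3% of all genes tested. Interleukin 6, in contrast, measured 12.53, 10.83 and 11.72 in high stretch muscles, against 12.46, 11.41 and 12.10 in low stretch muscles, with overlapping groups and no call (difference -0.30 ± 0.42, SE). Of 26 genes of the NF-kB response, 19 fell and 1 rose (median -0.86). Cebpb, a transcription factor of the acute phase, measured 9.08, 8.79 and 9.46 in high stretch muscles, against 11.85, 11.91 and 12.10 in low stretch muscles. Nfkbia, the inhibitor that NF-kB induces against itself, measured 9.55, 8.96 and 9.27 in high stretch muscles, against 12.07, 11.52 and 11.83 in low stretch muscles, a difference of -2.55 ± 0.19 (SE; adjusted p = 8.85e-07). Of 31 genes of the interferon response and antigen presentation, 17 fell and 0 rose (median -0.84), with Ifitm3, which blocks viral entry, at -1.74 and Cd74, the invariant chain of class II molecules, at -1.73. In the index fit the calls were 1 higher and 6 lower among chemokines and cytokines, 0 higher and 4 lower in the NF-kB list and 0 higher and 5 lower in the interferon list, and Nfkbia was not among them (-1.72). Calls in that fit over all 10316 genes tested were 457 higher and 885 lower.

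The promoters of Cxcl6 and Nfkbia are shown as a pair of falling genes that both hold a match to the NF-kB motif (GGG, any 2 bases, TT, any 1 base, CC) within 150 bases of the start. They lie on the minus strand of GRCr8 at chr14:17596418-17596567 and chr6:78597073-78597222 (RefSeq), are written 5' to 3' and have the match in capitals, which for Nfkbia is that of the opposite strand. They were picked after their letters were seen.
Cxcl6: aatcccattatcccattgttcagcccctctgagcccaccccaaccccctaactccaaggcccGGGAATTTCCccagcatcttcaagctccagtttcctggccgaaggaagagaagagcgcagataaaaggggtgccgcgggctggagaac
Nfkbia: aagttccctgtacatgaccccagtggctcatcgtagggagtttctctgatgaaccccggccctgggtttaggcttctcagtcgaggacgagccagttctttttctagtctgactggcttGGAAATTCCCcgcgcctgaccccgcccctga
The matches lay 88 to 79 bases before the start of Cxcl6 and 31 to 22 before that of Nfkbia. Of the 30 chemokine and NF-kB genes that fell and had a promoter, 26.7% held the motif within 250 bases, against 27.8% of the 18 that did not fall, 4.76% of genes tested and 4.28% of all promoters. Over all genes, 5.30% of those that fell and 4.03% of those that rose held it.

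Immediate early genes, which stretch and growth signals induce within minutes, did not move one way. Of 28 tested, 8 fell (28.6%) and 4 rose (14.3%), with a median of -0.30. Over all genes tested, 26.5% fell and 23.4% rose. Maff, a small Maf protein, measured 9.11, 8.61 and 9.07 in high stretch muscles, against 10.85, 10.66 and 10.93 in low stretch muscles, and Junb, a subunit of AP-1, differed by -1.81, a call lost in the index fit (-1.50). Fos measured 11.79, 12.50 and 12.27 in high stretch muscles, against 11.87, 11.42 and 11.57 in low stretch muscles, and Egr1 measured 11.15, 11.01 and 11.45 in high stretch muscles, against 11.37, 10.68 and 11.23 in low stretch muscles. The groups of both genes overlapped, and neither gene passed (adjusted p = 0.163 for Fos and 0.703 for Egr1). Among 18 MAPK phosphatases and feedback genes, 3 rose and 2 fell, with the kinase Map2k3 at 0.74 and the phosphatase Dusp8 at -0.88. The call of Map2k3 was lost in the index fit (1.13) and that of Dusp8 with weight as a covariate (-0.78). Of 25 targets of YAP and SRF, regulators that read tension through actin, 6 rose and 3 fell (median 0.13), whereas the index fit called 2 higher and 4 lower (median -0.08). It called 3 higher and 3 lower among immediate early genes and 2 higher and 1 lower in the MAPK list. Its counts for all 10316 genes tested were 457 higher and 885 lower. Ccn1, a matricellular target of YAP, measured 7.89, 8.72 and 8.99 in high stretch muscles, against 11.60, 11.35 and 11.01 in low stretch muscles, a difference of -2.79 ± 0.31 (SE; adjusted p = 1.84e-05). Wwtr1, which encodes TAZ, the partner of YAP, measured 8.56, 8.62 and 8.57 in high stretch muscles, against 7.73, 7.75 and 7.91 in low stretch muscles. The target fell and the coactivator rose, each with no overlap, as in 56.3% of all genes tested. The call of Wwtr1 was lost with the index (0.59) and with weight (0.46) as covariates. Ccn2 measured 11.01, 8.33 and 11.72 in high stretch muscles, against 10.99, 9.45 and 9.51 in low stretch muscles, and with arrays that spread over more than 3 log2 units its difference of 0.37 ± 0.78 did not pass.

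Natriuretic peptides, the classical hormones of stretched myocardium, gave opposite results. Nppb, the B-type peptide, measured 12.44, 13.07 and 12.50 in high stretch muscles, against 13.53, 13.34 and 13.55 in low stretch muscles, a difference of -0.80 ± 0.23 (SE; adjusted p = 0.0127). Nppa, the A-type peptide, measured 6.98, 7.09 and 7.14 in high stretch muscles, against 6.72, 6.22 and 6.31 in low stretch muscles, a difference of 0.65 ± 0.13 (adjusted p = 0.00133). Nppb was lower on every high stretch array and Nppa higher, and groups did not overlap in 56.3% of all genes tested. Both calls were lost with the index (-1.12 and 0.63) and with weight as covariates (-0.80 and 0.74). Normalizing the arrays by quantiles again also ended the call of Nppb (-0.56, adjusted p = 0.0682). Among the 11 natriuretic and fetal genes tested, 4 fell (36.4%) and 1 rose (9.09%), beside 26.5% and 23.4% of all genes. The index fit called 1 higher and 1 lower, beside 457 higher and 885 lower of all 10316 genes tested. Furin, a protease that cleaves prohormones, differed by -0.94, and Npr2, the receptor of the C-type peptide, by -0.80. The call of Furin was lost in the index fit (-0.49) and that of Npr2 with weight as a covariate (-0.90). Acta1, Myh7 and Myh6 did not pass on their brightest probe sets. Skeletal actin, Acta1, measured 10.89, 11.26 and 10.09 in high stretch muscles, against 10.90, 11.30 and 11.74 in low stretch muscles. Beta-myosin, Myh7, averaged 12.83 ± 1.05 in high stretch muscles and 13.24 ± 0.37 in low stretch muscles (SD, n = 3 each), and 1 high stretch array, at 11.64, was far under the rest. Alpha-myosin, Myh6, differed by -0.02 ± 0.09. Other probe sets of the same myosins were called lower, at -2.72 for Myh6 and -2.65 for Myh7, and with the index as a covariate the brightest probe set of Myh7 turned to 2.92. Without replicate 2 of the high stretch muscles, Acta1 was called at -0.82 (adjusted p = 0.0487).

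The contractile apparatus fell in part, where 26.5% of all genes tested fell and 23.4% rose. Of 26 sarcomere genes, 10 fell and 1 rose (median -0.30), and the index fit called 2 higher and 4 lower. That fit called 457 higher and 885 lower of all 10316 genes tested. Cardiac troponin I, Tnni3, measured 13.05, 12.98 and 13.04 in high stretch muscles, against 14.20, 14.04 and 14.11 in low stretch muscles, and the M-band protein Myom1 differed by -1.59. Ventricular myosin light chain 2, Myl2, measured 13.21, 13.22 and 13.39 in high stretch muscles, against 14.22, 14.15 and 14.16 in low stretch muscles, and its other probe set, at -0.36, did not pass. Of 23 genes of the Z-disc and stretch sensing, 6 rose and 4 fell (median 0.03), and the index fit called 1 higher and 1 lower. Pdlim1, which binds alpha-actinin, differed by -1.15 (-1.29 and no call in the index fit), and the small muscle protein Smpx by -0.87. Ankrd1, a stretch-responsive repressor that also sits at titin, measured 13.78, 13.74 and 13.82 in high stretch muscles, against 13.90, 14.00 and 13.91 in low stretch muscles on its brightest probe set, which did not pass, while its other probe set was called at -0.92. The muscle LIM protein Csrp3 differed by 0.03 ± 0.11 and did not pass. Fhl1, of the titin-bound stretch sensor, measured 13.48, 13.28 and 13.28 in high stretch muscles, against 12.99, 13.11 and 13.05 in low stretch muscles; its call (0.30, adjusted p = 0.0491) was lost without any 1 of the 6 arrays, at 0.23 to 0.33. It was also lost with the index (0.68) and with weight (0.58) as covariates. In actin turnover, 13 of 27 genes fell and 9 rose, and the index fit called 2 higher and 6 lower. Pfn1 was given above, and Tmsb4x, thymosin beta 4, which also holds actin monomers, measured 10.29, 9.74 and 9.82 in high stretch muscles, against 12.53, 12.93 and 12.69 in low stretch muscles. Of 28 integrin and focal adhesion genes, 9 fell and 3 rose; Itgb1bp2, the muscle chaperone melusin, differed by -1.61 and kindlin-2, Fermt2, by 0.68, with its other probe set at 0.01. In that list the index fit called 1 higher and 1 lower, without Fermt2 (0.95), whose call was also lost with probe sets averaged (0.34).

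The matrix genes had a median near that of all genes, and several members fell steeply. Of 42 collagen and matrix genes, 10 fell (23.8%) and 3 rose (7.14%), with a median of 0.06, or -0.07 in the index fit. Among all genes tested 26.5% fell and 23.4% rose. Sparc, a collagen-binding glycoprotein, measured 7.80, 7.71 and 6.82 in high stretch muscles, against 10.59, 10.89 and 10.47 in low stretch muscles, a difference of -3.20 ± 0.25 (SE; adjusted p = 9.73e-07), and -2.23 on its other probe set. Nid1, which links laminin to collagen IV, differed by -2.20 on its brightest probe set and -0.17 on the other, which did not pass. The collagen gene Col1a2 differed by -2.06, against -0.51 on a probe set that did not pass. Col1a1 differed by -0.10 ± 0.14 on its brightest probe set and was called at -1.04 on another, on which 2 high stretch values were under the filter. The probe sets of these collagens therefore did not give 1 answer. Periostin, Postn, a product of activated fibroblasts, measured 9.14, 6.62 and 8.19 in high stretch muscles, against 8.04, 7.15 and 7.44 in low stretch muscles, with overlapping groups and no call, though without replicate 2 of the high stretch muscles it was called at 1.12. Of 20 matrix proteases and inhibitors, 6 fell and 2 rose. Plaur, the urokinase receptor, differed by -2.77 and by 0.35 with the index as a covariate, and the protease inhibitor Serpine2 differed by -2.50. Of 29 genes of TGF-beta and BMP signals, 7 fell and 7 rose (24.1% each). Id3, an inhibitor of differentiation that BMP induces, measured 5.03, 4.81 and 4.95 in high stretch muscles, against 8.0, 7.84 and 8.12 in low stretch muscles; Gdf15, a stress cytokine, differed by -1.53 and Tgfb1 by -1.04, or -0.81 with its high stretch values, all under the filter, raised to it. Counts in the index fit were 2 higher and 4 lower among collagen and matrix genes, 1 higher and 0 lower among proteases and inhibitors and 3 higher and 2 lower in the TGF-beta list. For all 10316 genes tested the index fit called 457 higher and 885 lower. It ended the calls of Sparc (-2.08), Serpine2 (-2.26), Gdf15 (-0.88), Tgfb1 (-1.15) and Col1a2 (-2.51), and weight as a covariate also ended that of Tgfb1 (-0.76).

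Genes of excitation and of hormonal control had called members in both directions, where 26.5% of all genes tested fell and 23.4% rose. Of 29 calcium handling genes, 8 fell (27.6%) and 5 rose (17.2%). Their median was -0.05, but 0.064 with each array centred on its median. Jph2, which holds the T-tubule to the sarcoplasmic reticulum, measured 8.78, 9.41 and 9.13 in high stretch muscles, against 10.54, 11.14 and 10.92 in low stretch muscles, and the calcium sensor S100a1 differed by -1.40. The calcium pump Atp2a2 differed by -0.05 ± 0.09 (SE) and did not pass on its brightest probe set; another of its 4 was called at -0.93. Of 21 ion channel and gap junction genes, 4 fell (19.0%) and 3 rose (14.3%). Fxyd1, phospholemman, which regulates the sodium pump, measured 10.46, 10.61 and 10.39 in high stretch muscles, against 12.73, 12.43 and 12.65 in low stretch muscles. Gjc1, connexin 45, measured 9.79, 9.58 and 9.57 in high stretch muscles, against 8.25, 8.01 and 7.93 in low stretch muscles, and Gja1, connexin 43, measured 12.21, 12.76 and 13.53 in high stretch muscles, against 12.65, 12.36 and 12.09 in low stretch muscles. Connexin 45 was higher with no overlap, as in 56.3% of all genes tested. The groups of connexin 43 overlapped and it did not pass, but without replicate 1 of the high stretch muscles Gja1 was called at 0.78. In adrenergic, angiotensin and endothelin signalling, 10 of 25 genes fell and 8 rose, with the calcineurin inhibitor Rcan1 at -1.60 and Gnb1 as given above. Of 30 hypoxia and angiogenic genes, 11 fell and 7 rose, with adrenomedullin, Adm, at -2.34 and the oxygen sensor Egln1 at -1.14, whose other probe set, at 0.15, did not pass. Of 28 cardiac transcription factors, 8 fell (28.6%) and 6 rose (21.4%). The cardiac homeobox gene Nkx2-5 measured 9.14, 8.91 and 9.13 in high stretch muscles, against 10.83, 10.65 and 10.72 in low stretch muscles, and Esrra, a regulator of mitochondrial genes, differed by -0.98. Of 19 clock genes, 4 fell (21.1%) and 3 rose (15.8%). Clock differed by 1.04 on its brightest probe set and by 0.45 and -0.34 on the others, which did not pass. Tef differed by -1.46 on its brightest probe set against 1.55 on the other, both called. Among these lists the index fit called 1 higher and 4 lower in calcium handling, 2 higher and 3 lower among channels, 1 higher and 5 lower in adrenergic, angiotensin and endothelin signalling, 0 higher and 4 lower in the hypoxia list, 0 higher and 6 lower among cardiac transcription factors and 0 higher and 3 lower among clock genes. For all 10316 genes tested the index fit called 457 higher and 885 lower. It ended the calls of Nkx2-5 (-1.27), Adm (-1.75), S100a1 (-0.75) and Clock (0.83).

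Genes that act on chromatin, on RNA and at the nuclear pore had called members in both directions. Of 58 chromatin regulators, 19 rose and 17 fell (median 0.12, but -0.25 in the index fit), with Hira, Ankrd11 and Setd5, given above, among the rises. Of 41 RNA helicases and decay factors, 14 rose and 10 fell (median 0.10), with Dhx36 and Dhx32 (-1.38) in opposite directions. Of 44 nuclear import and pore genes, 12 rose and 9 fell, Kpna1 among the rises and the importin Ipo7 among the falls (-1.21). Of 56 splicing factors, 19 fell and 10 rose, with Hnrnpc at -1.35 and Hnrnpl at -1.33, of which Hnrnpc lost its call in the index fit (-1.03). Of 48 ubiquitin ligases and deubiquitinases, 13 rose and 6 fell; the ligase Huwe1 differed by -1.26 on its brightest probe set and by 1.22 on the other, with no call when they were averaged (-0.016), and Ubr4 by -1.15, or -0.57 and no call in the index fit. Of 24 apoptosis genes, 10 rose and 6 fell, with the mitochondrial nuclease Endog at -2.31 and Diablo, an inhibitor of IAP proteins, at -0.71, or -0.43 and no call in the index fit. Of 36 DNA repair and cell cycle genes, 8 fell and 7 rose, with the kinase Cdk12 at -1.46 and 0.12 on another probe set, and no call with weight as a covariate (-1.04). Over all genes tested 23.4% rose and 26.5% fell. The index fit called 3 higher and 4 lower among chromatin regulators, 3 higher and 1 lower among helicases and decay factors, 2 higher and 1 lower in the nuclear pore list and 0 higher and 4 lower among splicing factors. It called 1 higher and 2 lower in the ubiquitin list, 1 higher and 1 lower among apoptosis genes and 4 higher and 2 lower in the DNA repair list. Its counts for all 10316 genes tested were 457 higher and 885 lower.

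The promoter of Dhx36 is shown as that of the rise with the smallest adjusted p, with the ETS motif CCGGAAG in capitals 20 to 14 bases before the start (chr2:149044192-149044341, minus strand of GRCr8, RefSeq, 5' to 3'). It too was picked for printing after its letters were seen.
Dhx36: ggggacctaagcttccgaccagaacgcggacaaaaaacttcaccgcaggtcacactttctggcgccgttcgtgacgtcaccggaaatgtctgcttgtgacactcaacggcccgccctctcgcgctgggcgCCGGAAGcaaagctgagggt
The ETS motif was held by 16.7% of the genes that rose and 16.9% of those that fell, and the NRF1 motif by 9.48% of those that rose and 10.3% of those that fell. The AP-1 motif TGANTCA was held by 3.29% of the genes that rose and 4.48% of those that fell, the heat shock element (GAA, any 2 bases, TTC) by 5.11% and 4.57%, the TATA box TATAAA by 6.53% and 6.60%, and the CArG box of SRF by 1.08% and 1.21%, with rises before falls. Among genes tested these 4 motifs were held by 4.19%, 4.87%, 6.60% and 1.34%. All were searched on both strands of the 250 bases before the start, and the differences between these shares were not tested.

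**Figure D3:**
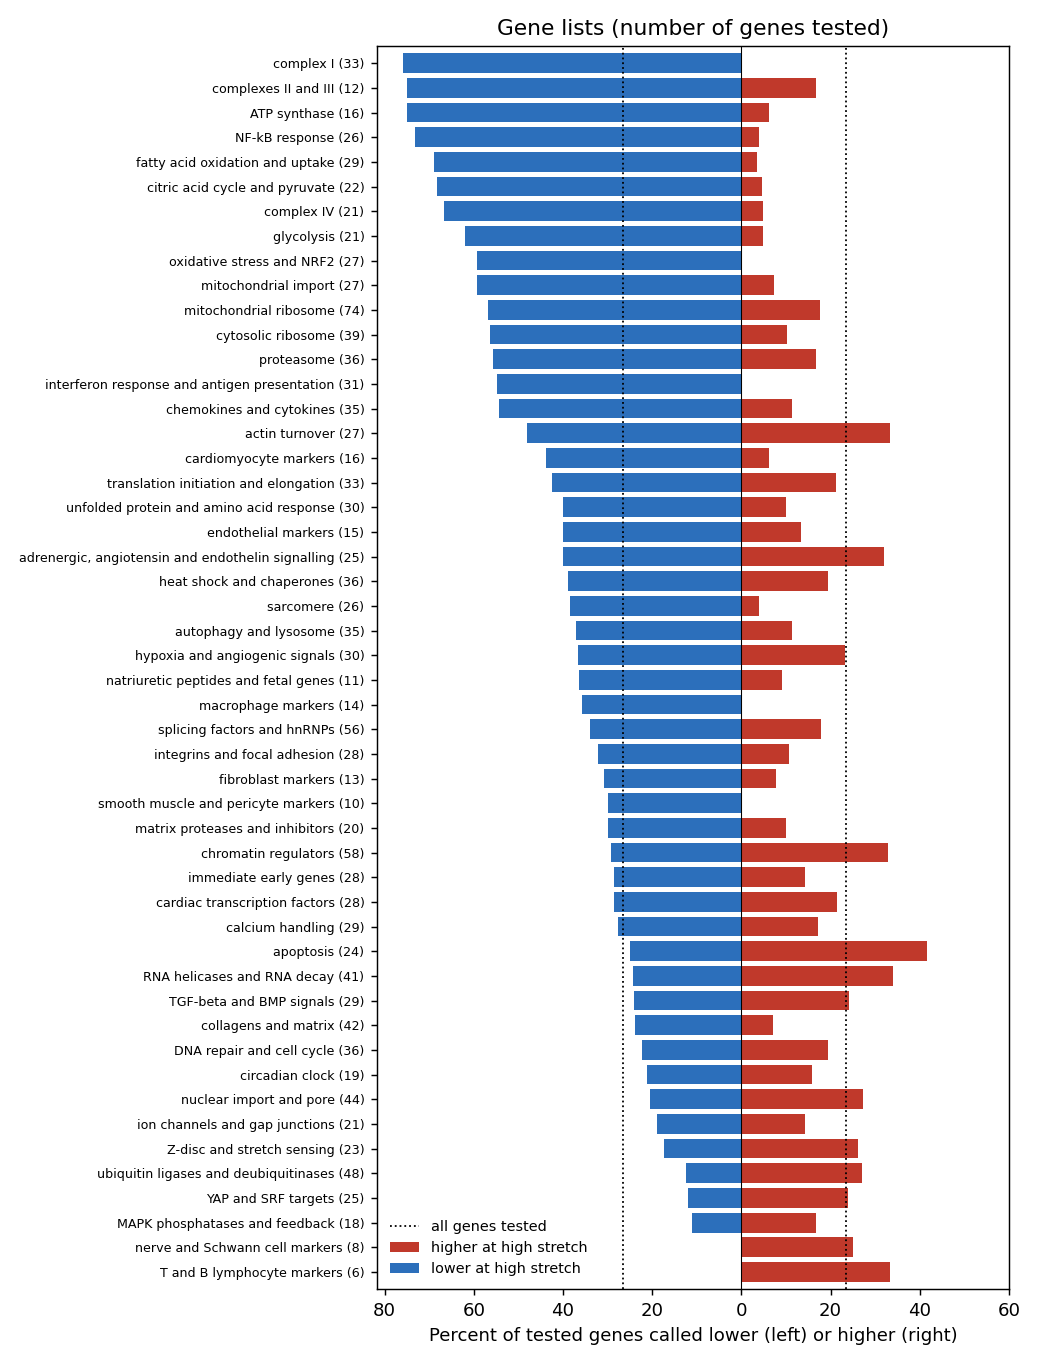
Percent of the tested genes of each list that were called higher (red, to the right) or lower (blue, to the left) in high stretch than in low stretch muscles, with the number tested in parentheses. Dotted lines mark the shares over all genes tested, 23.4% higher and 26.5% lower, and the lists of complex I, complexes II and III and ATP synthase have the longest bars to the left.

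Some markers of each of the main cell types in the muscle were called, beside shares of 23.4% higher and 26.5% lower over all genes tested. Of 16 cardiomyocyte markers, 7 fell and 1 rose (median -0.25, but 0.014 after quantile normalization again), and their mean level was 13.16 to 13.27 in high stretch muscles and 13.48 to 13.54 in low stretch muscles. On every array that mean was far above the filter of 4.91. Of 15 endothelial markers, 6 fell and 2 rose, with mean levels of 7.33 to 7.36 in high stretch muscles and 7.57 to 8.35 in low stretch muscles. Fabp4 is on that list, and without it, a setting chosen after seeing the data, the mean levels overlapped, at 7.57 to 7.62 in high stretch muscles and 7.47 to 8.23 in low stretch muscles. Eng, an endothelial co-receptor of TGF-beta, measured 8.22, 7.98 and 8.11 in high stretch muscles, against 9.35, 10.35 and 9.59 in low stretch muscles, a call lost with the index (-1.76) and with weight (-1.22) as covariates. Of 13 fibroblast markers, 4 fell (30.8%) and 1 rose, with Gsn, gelsolin, at -1.96. Of 14 macrophage markers, 5 fell and 0 rose, with mean levels of 6.62 to 6.75 in high stretch muscles and 6.79 to 7.28 in low stretch muscles, the adaptor Tyrobp at -1.47 and complement C1qc at -1.24, or -1.17 and no call with weight as a covariate. Of 10 smooth muscle and pericyte markers, 3 fell (30.0%) and 0 rose, with desmin, Des, which cardiomyocytes also hold, at -1.92, or -0.45 and no call in the index fit, and Smtn, smoothelin, at -1.47. The shares that fell in these fibroblast and smooth muscle lists were near that of all genes. The medians of the endothelial, fibroblast, smooth muscle and macrophage lists were -0.48, -0.10, -0.16 and -0.15, but with weight as a covariate 0.22, 0.11, 0.026 and 0.017. That of the fibroblast list was also above 0 with each array centred on its median (0.015), after quantile normalization again (0.065) and in the index fit (0.30). Marker calls in the index fit were 1 higher and 2 lower among cardiomyocyte, 0 higher and 3 lower among endothelial, 0 higher and 2 lower among fibroblast, 0 higher and 2 lower among macrophage and 0 higher and 1 lower among smooth muscle markers. That fit called 457 higher and 885 lower of all 10316 genes tested. The part of the marker genes in the falls of chemokine and other genes was not tested. The lists with under 5 tested genes held few calls. Of 4 adipocyte markers 2 fell, Fabp4 among them, which is also on the endothelial list, and of 4 skeletal muscle markers 1 fell. Of 2 mesothelial and valve markers 1 rose, and neither the 2 erythroid markers nor the 1 neutrophil and mast cell marker tested passed.

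Few lymphocyte and nerve markers were tested, and the shares that rose stand beside 23.4% of all genes. Of 6 lymphocyte markers tested, 2 rose (33.3%), Cd247 by 0.43 and Lck by 0.47. Of 8 nerve and Schwann cell markers, 2 rose (25.0%), Dbh, which makes noradrenaline, by 0.48 and Pmp22, a myelin protein, by 1.17, while the other probe set of Pmp22 was called at -1.18. The index fit called 0 higher and 0 lower in the lymphocyte list and 2 higher and 0 lower in the nerve list. It called 457 higher and 885 lower of all 10316 genes tested. The calls of Cd247, Lck and Dbh were lost both with the index (0.13, 0.23 and 0.78) and with weight (0.36, 0.38 and 0.64) as covariates. Leaving out single arrays also ended these calls. Without replicate 3 of the high stretch muscles, Cd247 differed by 0.25 (adjusted p = 0.106) and Lck by 0.41 (0.123), and without replicate 1 Dbh differed by 0.35 (0.113). The call of Lck was also lost without replicate 1 of the high stretch muscles, at 0.45, and that of Dbh without replicate 3 of them, at 0.46. Without replicate 1 of the low stretch muscles the uncalled differences were 0.44 for Cd247, 0.41 for Lck and 0.50 for Dbh, without replicate 3 they were 0.42, 0.38 and 0.43 for the same genes, and without replicate 2 the difference of Cd247 was 0.42.

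Different probe sets of the same gene often gave different answers. Of 2626 genes with more than 1 probe set past the filter, 1254 (47.8%) had every probe set on the same side of 0, 369 (14.1%) had all called the same way, and 403 (15.3%) had probe sets called in opposite directions. Of 18625 probe sets tested one by one, 9033 (48.5%) were called. Among 794 genes called higher that had other probe sets, 238 (30.0%) had another called higher and 273 (34.4%) another called lower, with a median of the others of -0.0144. Among 599 genes called lower, 299 (49.9%) had another called lower and 97 (16.2%) another called higher, with a median of the others of -0.348. The difference between these shares was not tested.

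The 5 widest opposite pairs show it. Rdx, radixin, which ties actin to the membrane, had 1 probe set at 8.22, 8.48 and 8.80 in high stretch muscles, against 5.77, 5.53 and 5.49 in low stretch muscles. Another probe set of Rdx read 5.41, 5.79 and 5.32 in high stretch muscles, against 9.79, 9.25 and 9.46 in low stretch muscles. The same gene was thus called up by 2.90 and down by 3.99 log2 units, while its brightest probe set, at -0.04, did not pass. For beta-catenin, Ctnnb1, probe sets were called at 1.38 and -3.93, and the brightest at 0.54. The mitochondrial chaperone Hspa9 gave 2.28 and -3.29, the heat shock factor Hsf2 gave 2.57 (with 1 low stretch value under the filter) and -2.83, and Oga, which removes O-GlcNAc from proteins, gave 0.89 and -3.94. The brightest probe set of Hspa9 differed by -0.69 and that of Hsf2 by 0.62. For these 5 genes the direction depended on the probe set.

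**Figure D4:**
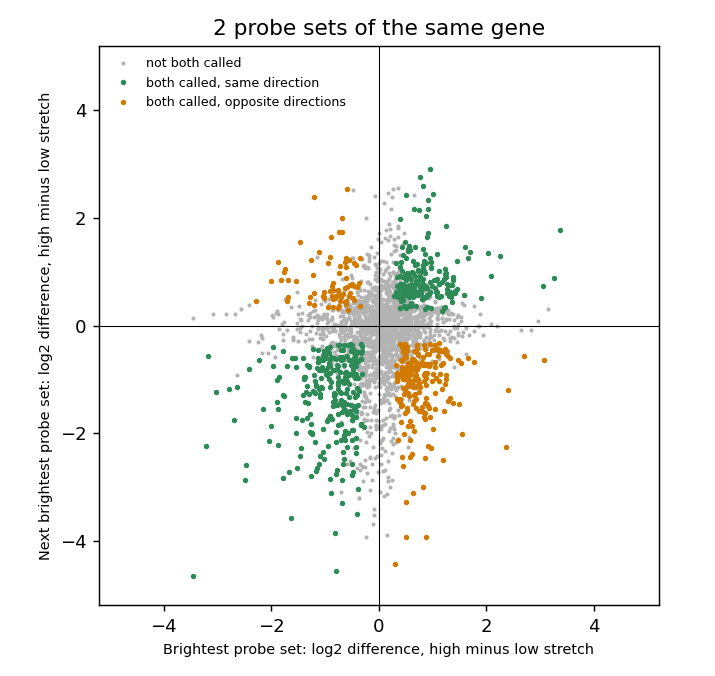
Log2 difference, high stretch minus low stretch, of the brightest probe set of a gene (horizontal axis) against that of its next brightest (vertical axis), with 1 point for each of 2626 genes. Of 738 genes with both called, 461 (62.5%, green) lie in the quadrants of equal sign and 277 (orange) in those of opposite sign.

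The calls varied with the length of the gene, given here as a description. The median genomic span, introns included (RefSeq, GRCr8), was 30.5 kb for genes that rose, 16.2 kb for genes that fell and 23.4 kb for all genes tested. Among genes changed at least 2-fold the medians were 33.7 kb for rises and 12.0 kb for falls. In 5 equal bins by span, the shortest, up to 7.86 kb, held 15.2% that rose and 37.7% that fell, and the longest, from 69.3 kb, held 28.6% that rose and 18.2% that fell. The part of gene length in the falls was not tested.

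**Figure D5:**
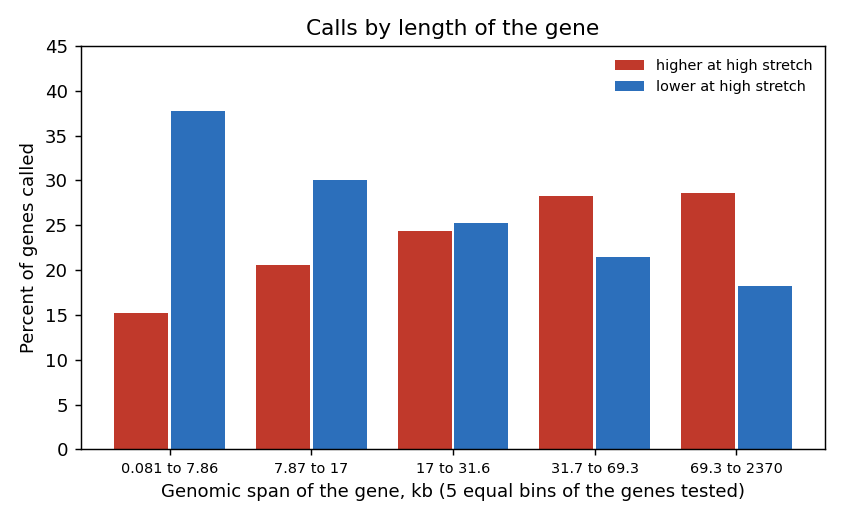
Percent of genes called higher (red) or lower (blue) in high stretch than in low stretch muscles (vertical axis), for 5 equal bins of the tested genes by genomic span in kb (horizontal axis). The share that rose climbs with span, 15.2% in the shortest bin and 28.6% in the longest, and the share that fell declines, 37.7% and 18.2%.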

How the data were processed

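Labels alone put each array in its group. The comparison to report and the gene lists were chosen with earlier results of these data known. Per the labels' protocols, 100 ng of total RNA from each muscle was labelled with biotin by a 3' in vitro transcription kit for Affymetrix arrays. The deposited table holds log2 intensities of 31099 probe sets, made by the authors with RMA, according to the submitters' processing notes, in a version not given in the sources used here. A second deposited table of 16391 probe sets holds the same log2 values (largest difference 0).

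Of 31042 probe sets that were not controls, 20826 had 1 gene symbol, 436 several and 9780 none in the platform annotation; 20758 were matched to RefSeq's GRCr8 table, with 0 symbols changed. Probe sets with a mean over the 12 arrays under the 40th percentile (4.91) were left out, and each of 10316 genes was read from its brightest of the 18625 left, of which 13789 had 1 symbol. Limma 3.58.1 (R 4.3.3) modelled 1 mean for each group across the 12 arrays, which share 1 estimate of the spread. Benjamini-Hochberg adjustment ran over 10316 genes, at a threshold of 0.05. Differences are high minus low stretch on the log2 scale with moderated SE; the median half-width of a 95% interval was 0.33 (1.26-fold), which 3 arrays a group limit. In data simulated for this comparison with 10316 genes, 37.3% of planted 1.41-fold changes, 83.6% of 2-fold and 97.0% of 4-fold were called, with 11 false calls. Changes were planted in only 67, 67 and 66 genes, where 49.9% of genes were called in the data. No shift in index or weight between groups was simulated. The simulation therefore cannot give the number of false calls among the 5152 genes.

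Named genes were the 12 largest rises and falls without overlap between groups, the 2 called genes of smallest adjusted p in each list with at least 5 tested genes, the followed genes and the 5 widest pairs of opposite probe sets. Of the followed genes, Xirp2, Gapdh and Actb were not among those tested. Control quantities were compared by exact permutation. Promoters were searched in 8608 tested genes with an entry in RefSeq's table. Alternatives changed the filter, the choice of probe set, the scaling, the arrays fitted, the prior, covariates, a block for the replicate number and the threshold. Plots used Python 3.11.15 and its library matplotlib 3.10.9.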

Additional observations from a re-analysis of the deposited data

Results flagged for a closer look

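The stretch effect at low shortening differed from that at high shortening in 3496 of 10316 genes (33.9%) by limma's interaction term, adjusted over all genes. It did so in 110 of the 132 genes named above, whose largest adjusted p was 0.0469. Most named genes were chosen by their difference at low shortening, which the interaction term contains. The count of 110 therefore follows largely from that choice. In 0 genes was stretch called at high shortening itself. The values below are the stretch effect at low shortening minus that at high shortening, in log2 units. The index of the low stretch arrays at low shortening lies outside that of the other 9, and the interaction was called in 737 genes with the index as a covariate.

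Among genes of mitochondria and fuel use the difference of effects was -5.06 for Atp5mg, -4.50 for Ndufb8, -4.01 for Higd2a, -3.36 for Cd36, -3.06 for Ndufa5, -2.13 for Atp5pf and -1.92 for Pgam2. Smaller differences came from the remaining members of these lists. They were -1.76 for Mrpl54, -1.70 for Mrps18b, -1.63 for Tomm40, -1.59 for Mpc1, -1.54 for Cox8a, -1.46 for Hadha, -1.45 for Uqcr11, -1.35 for Gpi, -1.31 for Uqcrfs1, -1.21 for Timm13 and -1.02 for Cs, all in the direction of a fall.

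Among genes of protein synthesis, folding and removal it was -3.41 for Rps24, -2.62 for Hsp90ab1, -2.56 for Hyou1, -2.36 for Slc7a5, -2.26 for Rpl24, -1.84 for Map1lc3a, -1.72 for Atg2a, -1.71 for Psmd6, -1.67 for Eif1b, -1.66 for Psma2, -1.55 for Eif4g1, -1.28 for Huwe1, -1.17 for Ubr4 and -0.66 for Hspa9. The co-chaperone Dnajc7 ran the other way at 2.62 for Dnajc7. The antioxidant genes gave -2.26 for Gpx4, -1.48 for Sod2 and -0.98 for Hmox1.

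Among inflammatory and early response genes it was -3.82 for Mif, -3.64 for Cxcl6, -3.06 for Cxcl9, -2.82 for Cebpb, -2.68 for Ccl7, -2.45 for Nfkbia, -2.10 for Junb, -2.05 for Maff, -1.88 for Ifitm3, -1.76 for Cd74, -1.68 for Tyrobp and -1.17 for C1qc. Fabp4 gave -5.48, or -4.52 with its values under the filter, in 3 of the 4 groups, raised to it. Of the growth and vascular signals, the values were -2.86 for Plaur, -2.75 for Adm, -2.61 for Ccn1, -2.50 for Id3, -1.71 for Eng, -1.29 for Gdf15, -1.19 for Egln1, -1.13 for Tgfb1, -0.93 for Furin and -0.86 for Dusp8. The kinase Map2k3 and the coactivator Wwtr1 were the exceptions in sign, with 0.91 for Map2k3 and 0.91 for Wwtr1.

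Matrix, actin and contractile genes gave -4.03 for Pfn1, -3.37 for Sparc, -2.92 for Serpine2, -2.91 for Tmsb4x, -2.18 for Col1a2, -2.07 for Nid1, -2.07 for Gsn, -2.00 for Des, -1.69 for Myom1, -1.60 for Itgb1bp2, -1.34 for Smtn, -1.12 for Tnni3, -0.98 for Pdlim1, -0.90 for Smpx and -0.89 for Myl2. The adhesion genes of positive sign gave 0.46 for Ctnnb1 and 0.62 for Fermt2. Excitation, hormonal and transcriptional control gave -2.33 for Fxyd1, -1.82 for Jph2, -1.78 for Nkx2-5, -1.68 for Rcan1, -1.48 for S100a1, -1.27 for Tef and -0.92 for Esrra, with 1.12 for Clock, 1.45 for Gjc1 and 2.73 for Gnb1 of positive sign.

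Nuclear and RNA genes and those on no list gave -3.62 for Drg1, -3.36 for Med30, -2.42 for Endog, -1.51 for Hnrnpc, -1.50 for Cdk12, -1.37 for Hnrnpl, -1.30 for Ipo7, -1.09 for Dhx32 and -0.72 for Diablo, all negative. Under the filter on some arrays, Hira, Nek1, Tc2n, Cxcl6, Med30, Id3 and Tgfb1 gave 2.70, 2.20, 2.53, -3.29, -2.90, -2.86 and -0.83 with low values raised to it. The positive differences of the largest rises were, as fitted, 4.02 for Hira, 3.60 for Setd5, 3.59 for Ube3al1, 3.29 for Dhx36, 3.28 for Nek1, 3.18 for Ankrd11, 2.93 for Tc2n, 2.90 for Kpna1, 2.78 for Slc16a6, 2.74 for Thoc3 and 2.71 for Wdfy1. Oga and Pmp22, whose probe sets were called in opposite directions, gave 1.11 for Oga and 1.13 for Pmp22 on their brightest probe sets.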

How the results depend on the processing

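The main limits are that the low stretch arrays hold the lowest 3' to 5' index and the heaviest rats. No array of that group overlaps the others in the index or in weight. With the index as a covariate, 1342 genes were called, 457 higher and 885 lower, and the difference of effects in 737. With weight as a covariate the counts were 2261, 871 higher and 1390 lower, and 1156. Testing every probe set gave 9033, 4486 higher and 4547 lower, and 6015 differences of effects, since more features were tested. Requiring a fold of at least 1.5 left 3579 genes, 1548 of them higher. Leaving out each array in turn, those at high shortening included as settings chosen after seeing the data, gave 4539 to 5291 genes, 2031 to 2503 higher and 2437 to 2788 lower; the difference of effects ranged from 2964 to 3428, its alternatives also added after seeing the data. Read from the middle in place of the 5' control probe sets, the difference in 3' excess was 1.38, and without single arrays the index difference was 2.13 to 2.74. Of the remaining settings, none moved these counts by more than 1.5 times; the share of genes whose probe sets lay on the same side of 0 was 47.4% for probe sets above the filter on all 6 arrays.

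Among named genes, 4 changed sign with the index as a covariate, Tc2n (-0.75), Plaur (0.35), Myh7 (2.92) and Hsf2 (-0.60). With probe sets averaged, 4 did, Tef (0.041), Pmp22 (-0.0086), Ctnnb1 (-0.67) and Oga (-1.19), and the cause there is the construction, since their probe sets differ in sign. Genes that changed sign in a setting are left out of its count of ended calls. The calls of 34 other named genes ended with the index as a covariate: Setd5, Slc16a6, Psma2, Pdlim1, Furin, Junb, Map2k3, Wwtr1, Fermt2, Sparc, Serpine2, Gdf15, Nfkbia, Adm, S100a1, Hnrnpc, Ubr4, Diablo, Clock, Nkx2-5, Col1a2, Eng, Des, Cd247, Lck, Dbh, Nppa, Nppb, Fhl1, Hmox1, Tgfb1, Hspa9, Ctnnb1 and Oga. With weight as a covariate 18 calls ended, those of Tc2n, Npr2, Dusp8, Wwtr1, Cdk12, Eng, C1qc, Cd247, Lck, Dbh, Nppa, Nppb, Fhl1, Hmox1, Tgfb1, Hspa9, Hsf2 and Oga. With probe sets averaged, 5 calls ended apart from genes that changed sign, those of Eif4g1, Fermt2, Huwe1, Fhl1 and Hsf2. For the covariates the cause was not tested. Replicate numbers did not pair the arrays (same-numbered residuals correlated at 0.00076, 0.16 and -0.14, others at -0.21 to 0.19). With the replicate number as a block, 5031 genes were called, 2341 higher and 2690 lower, the difference of effects in 3322, and the calls of Fhl1 and Lck were lost.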
